A study of Mus musculus with 13 samples.

Results

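Prm1, Tbata, Mroh2a and Lcn2 were the 4 genes, of 12270 tested, that lay farthest above both normal tissues in Ptch1 medulloblastoma. They were chosen by the smaller of their differences from the normal tissues, so the tumour differences below are a description and carry no test. Between them the 4 genes have 10 probe sets (3 for Prm1, 4 for Tbata, 2 for Mroh2a and 1 for Lcn2), of which 9 passed the filter on low values. The exception was the Mroh2a probe set 1447368_at.

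The samples were 6 primary Ptch1 MB tumours, 3 P7 GNPC samples and 4 E16.5 DBS samples, 13 untreated mouse tissues in all. The tumours carried the genotype Ptch1(+/-) and are described as medulloblastomas generated by inactivating Ptch1. The P7 GNPC samples (granule neuron precursor cells of the cerebellum at postnatal day 7) and the E16.5 DBS samples (dorsal brainstem of the embryo) were wildtype. The age, strain and sex of the tumour-bearing mice and the structure of the Ptch1 allele are not given in the sources used here. Tumours of a Ctnnb1 genotype were not analysed here. The normal tissues differ from each other in age and the labels name no batch, so age, batch and group cannot be told apart.

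Prm1 encodes a protamine, a small basic protein that replaces histones in the sperm nucleus, and in mouse testis it is transcribed in spermatids. Tbata is named for thymus, brain and testis, and in mouse thymic stroma its product binds Uba3, a subunit of the enzyme that activates Nedd8. Mroh2a belongs to the maestro family of HEAT repeat proteins. Lcn2 encodes lipocalin 2, a secreted protein that binds iron-carrying siderophores, is stored in neutrophil granules and is induced in glia and epithelia during inflammation. Ptch1 is the receptor that holds back Hedgehog signalling in granule neuron precursors.

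The targeted gene Ptch1 was measured by a probe set whose position relative to the inactivated part is not known, so it does not check the genotype. It read 3453.7 to 11575 in tumours, 5563.3 to 6972.4 in P7 GNPC and 5569.3 to 6133.5 in E16.5 DBS. A call is a Benjamini-Hochberg adjusted limma p under 0.05 with an absolute log2 difference of at least 1. Over all genes 6.59% were called higher and 14.2% lower in tumours than in GNPC, and 15.5% higher and 20.9% lower in tumours than in DBS. Of 8 granule neuron precursor markers, 3 were called higher against GNPC and 7 against DBS, with 0 lower, and all 7 brainstem markers tested were called lower in tumours than in DBS. All values are array intensities scaled by the authors to a common trimmed mean, and differences are on the log2(intensity + 18) scale, where dim genes show smaller changes than they had. The number of arrays limits the precision, and in bulk tissue fewer or more cells of a type and less or more RNA per cell cannot be told apart.

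The 250 bases before each gene's start (RefSeq, GRCm38.p6) are shown so that the sequence beside each gene can be read, with motif matches in capitals. They lie at chr16:10796824-10797073 on the minus strand for Prm1, chr10:61171714-61171963 on the plus strand for Tbata, chr1:88226770-88227019 on the plus strand for Mroh2a and chr2:32387740-32387989 on the minus strand for Lcn2.
Prm1: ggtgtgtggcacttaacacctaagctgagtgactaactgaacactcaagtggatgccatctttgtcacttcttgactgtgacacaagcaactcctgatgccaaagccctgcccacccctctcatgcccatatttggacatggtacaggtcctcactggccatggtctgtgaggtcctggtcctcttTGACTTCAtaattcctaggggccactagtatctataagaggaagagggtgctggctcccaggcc
Tbata: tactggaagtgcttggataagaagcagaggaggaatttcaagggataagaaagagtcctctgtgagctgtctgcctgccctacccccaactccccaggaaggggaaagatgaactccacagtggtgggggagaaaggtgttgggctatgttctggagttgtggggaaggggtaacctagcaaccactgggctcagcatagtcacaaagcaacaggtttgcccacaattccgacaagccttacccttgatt
Mroh2a: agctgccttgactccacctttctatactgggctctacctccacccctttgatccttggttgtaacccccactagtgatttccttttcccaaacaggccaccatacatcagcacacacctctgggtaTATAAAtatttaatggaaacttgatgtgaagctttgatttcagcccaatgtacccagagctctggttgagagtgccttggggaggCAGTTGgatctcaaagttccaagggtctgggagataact
Lcn2: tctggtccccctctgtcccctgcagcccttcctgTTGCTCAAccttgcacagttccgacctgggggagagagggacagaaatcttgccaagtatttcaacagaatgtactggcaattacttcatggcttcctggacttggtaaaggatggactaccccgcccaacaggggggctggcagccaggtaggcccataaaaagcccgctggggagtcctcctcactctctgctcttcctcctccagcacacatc

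Both strands were searched for 7 motifs. The CRE variant TGACTTCA was found in the Prm1 window, and in 1.31% of 32851 promoters. The Mroh2a window held TATAAA, found in 12.4% of promoters, and the E-box CAGNTG, found in 44.8%. The Lcn2 window held the C/EBP motif TTGCNNAA, found in 9.56%. The GLI motif CCACCCA (8.11% of promoters), the CRE TGACGTCA (1.55%) and the STAT motif TTCNNNGAA (7.02%) matched in none of the 4 windows. A match describes these letters only, and an absent match says only that the letters are not in this window.

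Prm1 read between 1138.6 and 3326.1 in the 6 tumours (median 2550) on its brightest probe set, 1439379_x_at. The same probe set read 0.6, 1.5 and 0.6 in GNPC and 2.0, 4.2, 0.3 and 2.2 in DBS. All 6 tumours were above all 7 normal samples, and the normal samples lay under the 20th percentile of their own arrays. Mean intensity was 2298 ± 909 in tumours (SD, n = 6), 0.9 ± 0.52 in GNPC (SD, n = 3) and 2.18 ± 1.6 in DBS (SD, n = 4). With dim arrays raised to their 20th percentile, this probe set was at least 112-fold higher in tumours than in GNPC and at least 108-fold higher than in DBS. The bounds were 108-fold and 83.5-fold on 1437054_x_at. On 1415955_x_at, where no normal array was under that percentile, the folds were only 4.29 and 2.59.

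A second Prm1 probe set, 1437054_x_at, read 1046.4 to 3317.6 in tumours, 1.0 to 1.4 in GNPC and 0.5 to 50.4 in DBS. The third, 1415955_x_at, read 170.7 to 326.1 in tumours, 44.8 to 70.3 in GNPC and 75.3 to 107.1 in DBS. The tumours lay above every normal sample on all 3, but the lowest tumour was only 1.59 times the highest normal sample on 1415955_x_at. Across the 6 tumours the bright pair followed each other (r = 0.994, exact permutation p = 0.00278, adjusted p = 0.0278 over 10 probe-set pairs). By rank this did not pass adjustment (rho = 0.943, exact permutation p = 0.0167, adjusted p = 0.0833). The r of 1415955_x_at with the others was 0.483 and 0.426 over the 6 tumours, and 0.992 and 0.969 without the 2 tumours farthest from its median. All 3 are of the _x_at kind, whose probes may match other transcripts, and whether that bears on these readings was not tested.

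**Figure D1:**
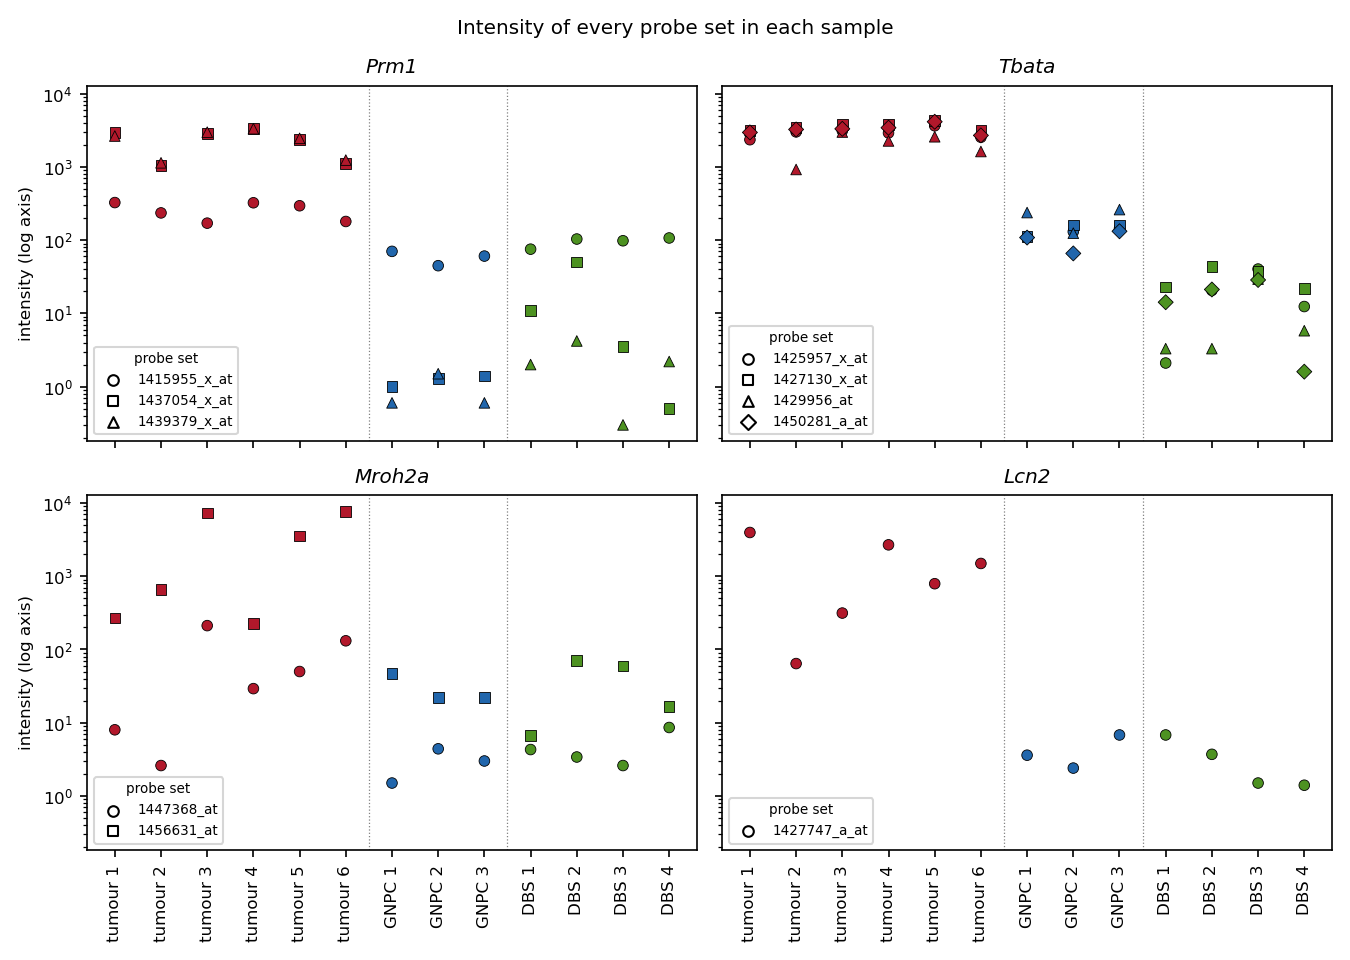
Intensity (log axis) of each of the 10 probe sets in each sample, tumours first, then P7 GNPC and E16.5 DBS, with a panel per gene, a marker shape per probe set and a colour per group. Prm1, Tbata and Lcn2 stand above all normal samples in every tumour, while Mroh2a 1447368_at overlaps the normal samples.

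Other spermatid genes were near background in the tumours. Of 25 late spermatid genes, 21 lay below the array median on every array and only Crem, a transcription factor of spermatids that is also active elsewhere, passed the filter. Crem averaged 388 ± 33.5 in tumours, 234.5 ± 9.85 in GNPC and 483 ± 97.1 in DBS, and was called in neither comparison (log2 difference 0.68, limma adjusted p = 0.00156 against GNPC; -0.29, adjusted p = 0.0705 against DBS). The other 24 genes reached at most 99.5 in tumours (Spata3), 88.9 in GNPC and 124.4 in DBS. Of 12 earlier germ cell genes none passed the filter, and the highest tumour reading was 114.4 (Piwil2).

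Prm1 lies beside other spermatid genes on chromosome 16. Prm2, which encodes the other protamine, read 2.9 to 28.1 in tumours and 5.9 to 45.5 in DBS, with all GNPC readings below the highest tumour. Tnp2, a transition protein gene, read 3.2 to 31.4 in tumours, 2.3 to 3.1 in GNPC and 0.7 to 1.6 in DBS, and Prm3 read 8.4 to 25.3, 4.4 to 47.4 and 3.3 to 15.8 in the same groups. None of these 3 reached the array median on any array. On the other side lie Rmi2, which did not pass the filter, Litaf and Snn. Litaf read 1544.7 to 2518.5 in tumours, 978.5 to 1044.5 in GNPC and 732.5 to 971.0 in DBS, and was called higher against DBS (1.22, limma adjusted p = 1.57e-06) but fell short of the fold minimum against GNPC (0.92, adjusted p = 0.000172). Snn was called in neither comparison (-0.15 and -0.58).

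**Figure D2:**
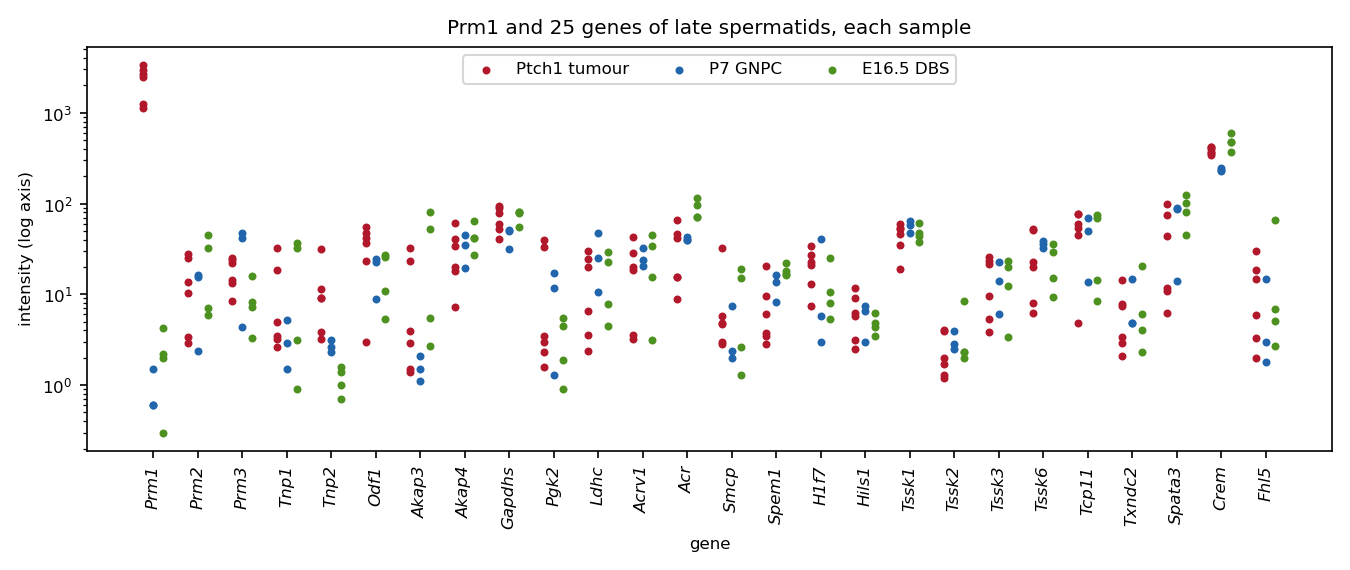
Intensity (log axis) of Prm1 and the late spermatid genes, with 1 point per sample coloured by group. The lowest Prm1 tumour point is 1138.6, while the other genes except Crem reach at most 124.4.

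On its brightest probe set Tbata varied little among the tumours. This probe set, 1427130_x_at, read 3138.1 to 4301.4 in the 6 tumours, 111.5, 161.2 and 157.0 in GNPC and 22.8, 43.6, 37.3 and 21.8 in DBS. Mean intensity was 3620 ± 436 in tumours, 143 ± 27.6 in GNPC and 31.4 ± 10.8 in DBS. The log2 standard deviation among tumours was 0.17, against a median of 0.27 over all genes, and 22.8% of genes varied less. On 1429956_at it was 0.66, as for Prm1 on 1439379_x_at (0.66). The 3 groups did not overlap, in the order tumours, GNPC, DBS. The choice of members bears on this order, and the share of all genes that show it was not counted.

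The same order held for the other probe sets. In tumours 1425957_x_at read 2353.5 to 3648.6, 1450281_a_at 2695.3 to 4143.3 and 1429956_at 923.0 to 3141.4. In GNPC they read 108.9 to 143.4, 65.9 to 132.2 and 124.5 to 261.5, and in DBS 2.1 to 40.3, 1.6 to 28.6 and 3.3 to 29.4. The lowest tumour was 3.53 times the highest normal sample on 1429956_at, the only Tbata probe set with no suffix for shared or alternative transcripts, and 16.4 to 20.4 times on the others. Across the 6 tumours 1429956_at did not follow the other Tbata probe sets (r = -0.0202, 0.222 and 0.214). Those others had r of 0.9 to 0.948 with each other (exact permutation tests, adjusted p = 0.0278 to 0.0556). Their rho was 0.771 to 0.943, and none passed adjustment by rank (exact permutation tests, adjusted p = 0.0833 to 0.257).

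The members were not ranked on GNPC against DBS, and this difference was tested. The test is not independent of the choice, because the same GNPC and DBS values entered the ranking. Members had to lie far below the tumours in both tissues, which limits how far GNPC and DBS can differ. All 4 Tbata probe sets were called higher in GNPC than in DBS, against 9.55% of 25894 probe sets called in that direction. These 4 measure the same gene, so their calls are not separate support. The log2 difference was 1.72 ± 0.19 (SE) for 1427130_x_at, with a limma adjusted p of 6.65e-06, and 3.02 ± 0.40 for 1429956_at, with a limma adjusted p of 3.58e-05. The other Tbata probe sets differed by 2.08 ± 0.27 (1425957_x_at) and 1.83 ± 0.27 (1450281_a_at). In DBS every Tbata probe set lay below the array median on all 4 arrays. Depending on the probe set, 1 to 3 of these arrays were under the 20th percentile, so the sizes of the Tbata differences are uncertain. Gene by gene, 8.73% of 12270 genes were called higher and 9.68% lower in GNPC than in DBS. Prm1 1439379_x_at and Lcn2 lay under the 20th percentile on all 7 normal arrays and Mroh2a below the array median on all 7, so their GNPC and DBS levels were too dim to compare. Prm1 1415955_x_at was below the array median but not under the 20th percentile on the normal arrays. It was lower in GNPC than in DBS without being called (-0.58 ± 0.24 (SE), limma adjusted p = 0.0692).

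**Figure D3:**
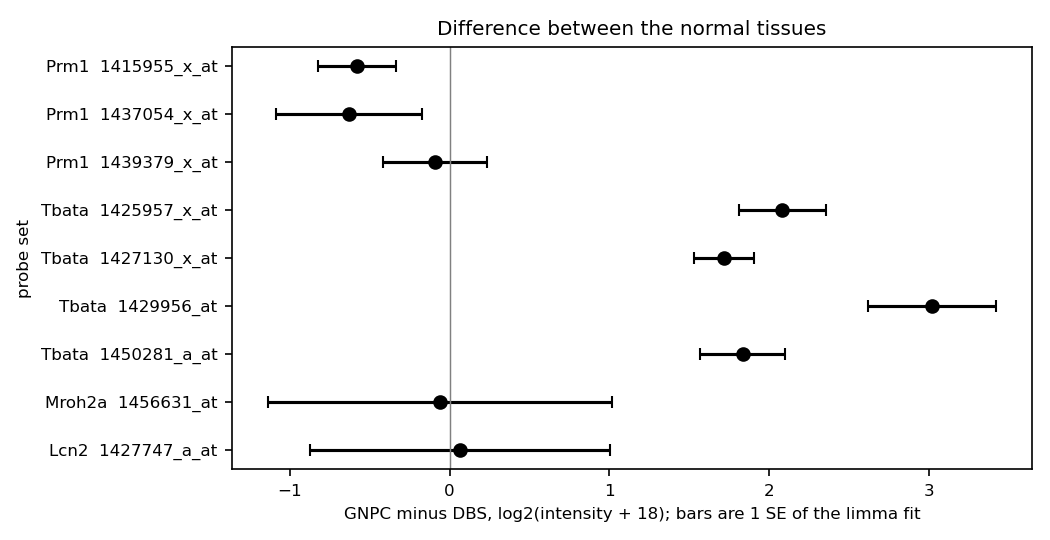
Difference of P7 GNPC minus E16.5 DBS in log2(intensity + 18) for each probe set, with bars of 1 SE of the limma fit. The 4 Tbata probe sets, which lay below the array median in DBS, lie at 1.72 to 3.02. The probe sets of the other genes, which lay below the array median in both tissues, are shown for completeness.

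Of 16 neddylation genes none was called by limma against GNPC, and Rbx1, a subunit of cullin ligases, was the only one called against DBS (1.20, limma adjusted p = 4.73e-07). On adjusted p alone, without the fold minimum, 5 passed against GNPC and 11 against DBS, beside 49.4% and 70.4% of all genes, and the same 5 had an unadjusted p under 0.05 against GNPC. Uba3 averaged 5924 ± 532 in tumours, 4295 ± 109 in GNPC and 4348 ± 146 in DBS, a log2 difference of 0.46 against GNPC (limma adjusted p = 0.000493) and 0.44 against DBS (limma adjusted p = 0.000136). The list's median difference was 0.09 against GNPC and 0.30 against DBS, beside -0.03 and 0.0019 over all genes. Of 10 thymic epithelium genes 2 passed the filter. Ly75, an endocytic receptor, was called lower in tumours than in DBS (-1.27, limma adjusted p = 0.00134), beside 20.9% of all genes. Ccl25, the other gene past the filter, was called in neither comparison (-0.48 against GNPC and 0.63 against DBS). Of the flanking genes of Tbata, Pald1 was called higher against GNPC (1.48) and DBS (1.56) and Sgpl1 against DBS (1.76). Pcbd1 was called lower against both (-1.08 and -3.03) and Unc5b, a netrin receptor, against GNPC (-2.58).

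Mroh2a was high in some tumours and lower in others. Probe set 1456631_at read 269.8, 654.1, 7330.4, 226.0, 3542.9 and 7670.3 in tumours 1 to 6, against 47.4, 22.2 and 22.1 in GNPC and 6.7 to 70.8 in DBS. Tumours 3, 5 and 6 were high, tumours 1, 2 and 4 were low, and the lowest tumour was 3.19 times the highest normal sample. The log2 standard deviation among tumours was 2.29, rank 12 of 12270 genes. The dimmer probe set 1447368_at read 2.6 to 211.7 in tumours, highest in tumours 3 and 6, 1.5 to 4.4 in GNPC and 2.6 to 8.6 in DBS, so tumours 1 and 2 lay within the normal range. The correlation of both probe sets over the 6 tumours was 0.848 (exact permutation p = 0.0556, adjusted p = 0.111).

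Of the Mroh family, 5 genes besides Mroh2a were measured and Mroh1 alone passed the filter. Mroh1 averaged 371 ± 56.4 in tumours, 724 ± 104 in GNPC and 1125 ± 126 in DBS. It was called lower in tumours than in DBS (-1.56, limma adjusted p = 7.61e-08) and not against GNPC (-0.93, adjusted p = 0.000114). The flanking genes Dnajb3, Trpm8 and Spp2 did not pass the filter and read at most 54.9 in tumours, 72.2 in GNPC and 91.2 in DBS.

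Lcn2 read 3959.3, 64.2, 314.3, 2685.3, 791.1 and 1495.3 in tumours 1 to 6. It read 3.6, 2.4 and 6.8 in GNPC and 6.8, 3.7, 1.5 and 1.4 in DBS, all under the 20th percentile of their arrays. Every tumour was above every normal sample, and tumour 2 was the lowest. The mean was 1552 ± 1510 in tumours, 4.27 ± 2.27 in GNPC and 3.35 ± 2.53 in DBS, and the log2 standard deviation among tumours was 2.08, rank 20 of 12270 genes. With dim arrays raised to their 20th percentile, Lcn2 was at least 41.9-fold higher in tumours than in GNPC and at least 40.4-fold higher than in DBS.

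Mroh2a was highest in tumour 6 and Lcn2 in tumour 1. Their r over the 6 tumours was -0.294 (exact permutation p = 0.569, adjusted p = 0.772, rho = -0.429), and the r of the other pairs among the 4 genes lay between -0.242 and 0.504, none with an adjusted p under 0.05 over 22 relations. These r rest on single tumours. For Lcn2 and Mroh2a it was -0.0416 without tumour 1, -0.812 without tumour 2 and 0.82 without tumours 1 and 4, and for Prm1 and Lcn2 (0.504) it was -0.041 without tumour 2 and 0.832 without tumour 6.

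**Figure D4:**
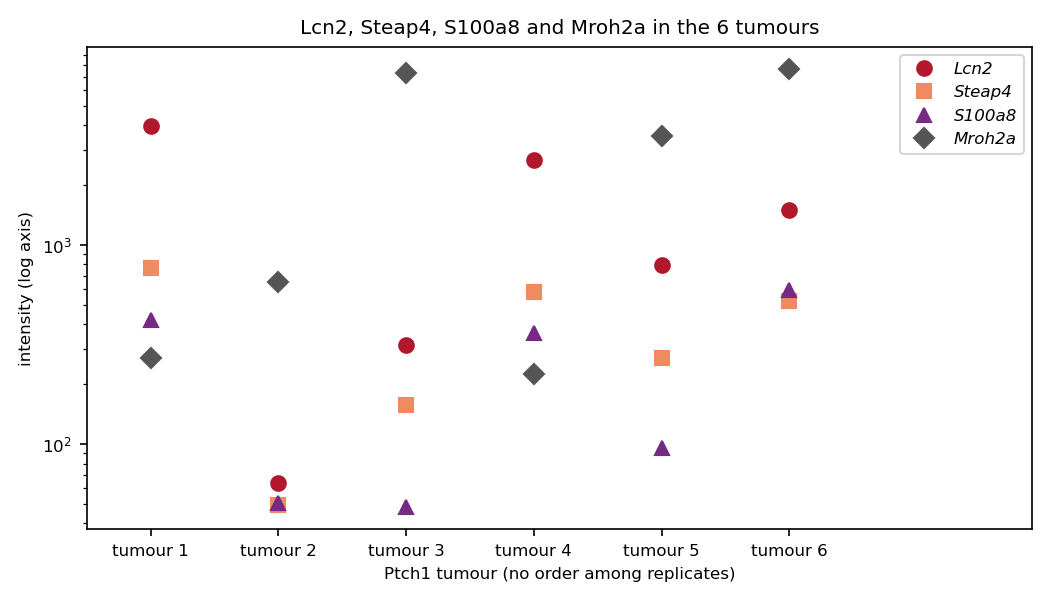
Intensity (log axis) in each of the 6 Ptch1 tumours, which have no order, for Lcn2, Steap4, S100a8 and Mroh2a. The highest tumour is 33.9 times the lowest for Mroh2a (tumours 3, 5 and 6 are high) and 61.7 times for Lcn2 (tumour 1 is the highest).

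Of 15 measured genes of the acute phase and of reactive glia, 11 passed the filter and 6 were called higher in tumours against GNPC and 6 against DBS, with 0 lower, beside 6.59% and 15.5% of all genes called higher. S1pr3 (-0.19 and -0.11) and Osmr (0.44 and 0.19) were called in neither, Gfap differed by -0.11 from GNPC, and Serpina3n by -0.76 from DBS (limma adjusted p = 0.227). The list's median difference was 1.13 against GNPC and 1.08 against DBS. Cxcl10, a chemokine, averaged 259 ± 146 in tumours, 33.3 ± 25.2 in GNPC and 18.9 ± 18.9 in DBS, and was called higher against GNPC (2.41, limma adjusted p = 0.00072) and against DBS (2.91, limma adjusted p = 2.54e-05). Without probe sets of shared or alternative transcripts the count against DBS was 3.

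Steap4, a metalloreductase, read 767.4, 49.6, 156.9, 582.7, 270.0 and 524.2 in tumours 1 to 6, against 15.0 to 84.3 in GNPC and 7.8 to 43.0 in DBS. Its highest and lowest tumours were those of Lcn2. It was called higher against GNPC (2.51, limma adjusted p = 0.00464) and DBS (2.89, limma adjusted p = 0.000432). Of all genes tested, Steap4 had the highest r with Lcn2 over the 6 tumours (0.9943), with 42 genes above 0.95, which is a description over 6 samples.

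Of 17 measured genes of pathways known to induce Lcn2, inhibitors such as Socs3 included, 9 passed the filter. Il6, Tnf and Il17a did not pass. In both comparisons 3 were called higher and 0 lower, beside 6.59% and 15.5% of all genes called higher. The list's median difference was 0.46 against GNPC and 0.62 against DBS. Stat3 (-0.88, limma adjusted p = 0.00762) and Il6st (-0.66, limma adjusted p = 0.003) were lower than in GNPC but fell short of the fold minimum. Il17ra, a receptor subunit for interleukin 17, averaged 461 ± 139 in tumours, 132 ± 20.3 in GNPC and 138 ± 11.6 in DBS. Socs3, a feedback inhibitor of cytokine signalling, differed by 1.37 against GNPC and 3.45 against DBS, and Nfkbiz, a nuclear regulator of NF-kB targets, by 1.13 and 1.66. With the mean of a gene's probe sets the count against GNPC was 1. Over the 6 tumours the mean of this list followed Lcn2 with r = 0.86 and rho = 0.943, but neither passed adjustment (exact permutation p = 0.025 and 0.0167, adjusted p = 0.519 and 0.367).

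Neutrophils store Lcn2, and their markers are given beside it. Of 13 measured, 4 passed the filter and limma called 0 in either tumour comparison (1 in each had an unadjusted p under 0.05), while 7, among them Mpo, Camp and Ngp, lay below the array median on every array. The summed intensity was 354 to 1288.3 in tumours, 493.8 to 713.5 in GNPC and 619.8 to 731.6 in DBS. S100a8, a calcium-binding protein of neutrophils and macrophages, read 420.6, 50.7, 48.3, 362.2, 96.2 and 596.1 in tumours 1 to 6, 58.0 to 88.8 in GNPC and 28.7 to 120.4 in DBS. The r of the list with Lcn2 was 0.765 (exact permutation p = 0.0708, adjusted p = 0.519), and its part in the Lcn2 level was not tested.

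Of 14 macrophage and microglia markers tested, 8 were called higher and 1 lower against GNPC, and 9 higher and 0 lower against DBS. Of all genes, 6.59% were called higher and 14.2% lower against GNPC, and 15.5% higher and 20.9% lower against DBS. The marker called lower was Mrc1, a mannose receptor (-1.31, limma adjusted p = 0.00202). Csf1r (-0.32 and -0.41) and Cx3cr1 (-0.29 and -0.28), receptors of microglia, were called in neither. Lyz2 (4.05 and 4.85) and Cd68 (1.87 and 3.23) were among those called higher. Their summed intensity was 8437.1 to 25585.5 in tumours, 6678.1 to 7895.9 in GNPC and 6038.4 to 6316.5 in DBS. Their r with Lcn2 over the tumours was 0.34 (exact permutation p = 0.518, adjusted p = 0.76).

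Other lipocalins and iron genes varied, beside 6.59% of all genes called higher and 14.2% lower against GNPC, and 15.5% and 20.9% against DBS. Of 3 lipocalin genes past the filter, Rbp4, a retinol carrier, was called higher against GNPC (2.38) and DBS (2.74), as was Apod (1.16 and 1.80), while Ptgds, a prostaglandin synthase, was called lower against GNPC (-2.26). The Lcn2 receptor gene Slc22a17 averaged 2363 ± 473 in tumours, 3365 ± 267 in GNPC and 5317 ± 477 in DBS, and was called lower against DBS (-1.18, limma adjusted p = 9.84e-07). Of 10 iron and receptor genes tested, Cp, the ferroxidase ceruloplasmin, was called higher against GNPC and DBS (log2 difference 2.11 against DBS) and Tfrc, the transferrin receptor, against DBS (1.42). Of 6 flanking genes of Lcn2 none was called higher, while 2 were called lower against GNPC and 3 against DBS. Dnm1, which encodes dynamin 1, was called lower against GNPC (-2.35) and DBS (-3.41), as was 1110008P14Rik (-1.23 and -1.71). Ptges2 was called lower against DBS (-1.16).

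The other marker lists are read against 6.59% of all genes called higher and 14.2% lower against GNPC, and 15.5% higher and 20.9% lower against DBS. The lymphocyte list had 0 calls by limma among 1 tested (0 at an unadjusted p under 0.05). Endothelial genes had 1 higher and 3 lower of 7 against GNPC, and 1 higher and 2 lower against DBS. Astrocyte genes had 0 higher and 5 lower of 7 against GNPC, and 1 higher and 3 lower against DBS. Choroid plexus genes had 0 higher and 1 lower of 6 against GNPC, and 1 higher and 2 lower against DBS. Their part in the levels of the 4 genes was not tested.

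Gapdh and beta-actin each have probe sets at both transcript ends, and the log2 ratio of 3' over 5' signal, a sign of RNA quality, averaged over both genes, had a mean of 1.39 ± 0.0986 in tumours, 1.16 ± 0.0453 in GNPC and 1.75 ± 0.497 in DBS, where DBS 2 stood apart at 2.43. Tumours differed from GNPC by 0.23 (exact permutation p = 0.0119, the smallest the design allows, adjusted p = 0.0357) and from DBS by -0.36 (exact permutation p = 0.0952, adjusted p = 0.0952). Without DBS 2 the difference from DBS was -0.13 (exact permutation test, adjusted p = 0.357), and without DBS 1 it was -0.53 (exact permutation test, adjusted p = 0.0179). Over the tumours its r with the 4 genes lay between -0.589 and 0.447, with adjusted p of 0.691 to 0.74 (exact permutation tests), and its part in the group differences was not tested.

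The smaller tumour difference was 6.73 for Prm1, 5.25 for Lcn2, 4.89 for Mroh2a and 4.50 for Tbata, and the genes just outside were Lyz1 at 4.33 and Lyz2 at 4.05, which encode lysozymes. Next came Krt12 (3.76), Eif4ebp1 (3.75), Sox18 (3.48) and Hk2 (3.47). All 4 genes had every tumour above every normal sample on their brightest probe set, as did 16.3% of the genes tested, but the choice of members bears on this count and nothing is read from it.

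**Figure D5:**
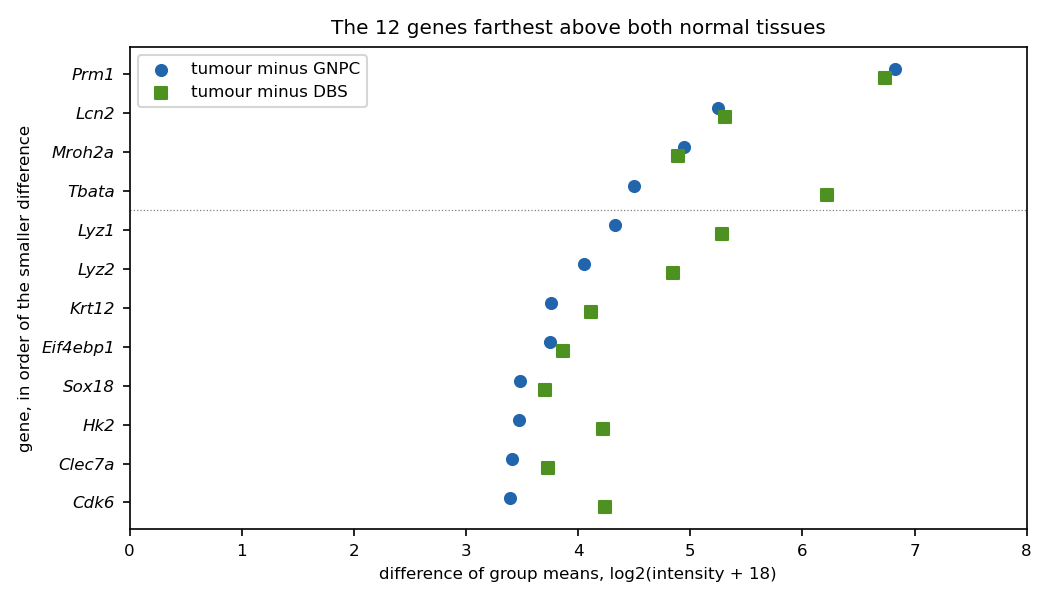
Difference of tumours minus P7 GNPC (circles) and minus E16.5 DBS (squares) in log2(intensity + 18) for the 12 genes with the largest smaller difference. The 4 chosen genes lie above the dotted line, with Lyz1 next at 4.33.

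Over all 13 samples the genes most like Prm1 were Psat1 (r = 0.9925), Sox18 (0.9892) and Rrp15 (0.9872), with 114 genes above 0.95. Those most like Tbata were Gli1 (0.992), Kntc1 (0.9914) and Dkc1 (0.9911), with 424 genes above 0.95. Gli1 is a transcription factor and target of Hedgehog signalling. Mroh2a had no gene above 0.95, and its closest were Syce2 (0.9415), Slc66a2 (0.9411) and Uba3 (0.9322). Lcn2 was closest to Kdelr2 (0.9753), Rhno1 (0.9716) and Abcc1 (0.963), with 15 genes above 0.95. These r are descriptions across 3 groups of samples that share the tumour and normal split.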

How the data were processed

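Total RNA from 13 mouse tissues, which the deposited description assigns to 6 Ptch1 MB, 3 P7 GNPC and 4 E16.5 DBS samples, was measured on Affymetrix arrays. The deposited values are linear intensities that the authors computed with MAS5, per the submitters' processing notes; each array has a trimmed mean of 500 after trimming 2% at each end. No detection calls were used. Of 45101 probe sets, 64 controls were left out, 34945 had 1 gene symbol, 932 several and 9160 none. The 4 members, the marker and pathway lists (17) and the tests were chosen with earlier results of these data known.

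From the deposited intensity, log2(value + 18) was taken, where 18 is the 20th percentile of all values. A probe set passed the filter if it exceeded its array's median on at least 3 arrays, and the probe set with the highest mean stood for a gene (12270 genes). One limma 3.58.1 model (R 4.3.3) with eBayes trend covered the 13 samples, with Benjamini-Hochberg adjustment over all genes, or over 25894 probe sets for probe-set values. The model was tested on simulated data. Correlations and quality ratios used exact permutation tests, two-sided (Python 3.11.15, scipy 1.17.1). Named genes were all 4 members, the first 10 genes of the ranking, up to 4 called genes per list and comparison with the largest differences, chromosomal neighbours, defining markers near background, and the 3 genes most like each member. Alternatives were other pseudocounts, scalings, filters and probe-set rules, and leaving out each sample. The series' design text states that no 2 samples share a mouse.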

Additional observations from a re-analysis of the deposited data

Results flagged for a closer look

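Of 20 groups of probe-set values tested for an outlying sample, 1 held one. Tbata 1429956_at read 29.4 in DBS 3, while the other DBS samples read 3.3, 3.3 and 5.8, so the gap to the nearest was 0.861 of the group's range. Chance flags about 1 in 20 groups.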

How the results depend on the processing

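No paired analysis was made, since the series' design text states that no 2 samples share a mouse. The labels carry no replicate numbers. The smaller tumour difference of Prm1 was 8.46 with a pseudocount of 4, 5.05 with a pseudocount of 64 and 4.70 with the mean of a gene's probe sets, and 6.03 to 6.91 when 1 sample was left out (6.03 without tumour 3). For Tbata it was 4.15 with a pseudocount of 64, 4.73 with arrays scaled to the same median, 4.23 with the mean of probe sets and 3.28 without probe sets of shared or alternative transcripts, and 4.35 to 4.59 with 1 sample left out. Under that last rule Prm1 and Lcn2 had no probe set left. Leaving out 1 sample gave 4.80 to 5.92 for Lcn2 and 4.41 to 5.40 for Mroh2a. The RNA quality difference of tumours minus GNPC was 0.17 on Gapdh alone (exact permutation test, adjusted p = 0.386), and that of tumours minus DBS was -0.51 on beta-actin alone (exact permutation test, adjusted p = 0.0357). Leaving out 1 sample, chosen after seeing the data, gave RNA quality differences of 0.20 to 0.25 for tumours minus GNPC (exact permutation tests, adjusted p = 0.0536 to 0.107, the fewer samples raising the smallest p), -0.53 to -0.13 for tumours minus DBS and -0.77 to -0.37 for GNPC minus DBS. The r among tumours with 1 tumour left out ran from -0.812 to -0.0416 for Mroh2a with Lcn2, -0.041 to 0.832 for Prm1 with Lcn2, -0.573 to 0.0291 for Prm1 with Mroh2a, 0.123 to 0.714 for Prm1 with Tbata, -0.551 to 0.101 for Tbata with Lcn2 and -0.0982 to 0.604 for Tbata with Mroh2a. The Tbata difference of GNPC minus DBS was 1.62 to 1.87 with 1 sample left out (limma adjusted p 8.02e-06 to 9.22e-05), and it was called under every alternative run. With 1 sample left out, 2243 to 2658 genes were called between tumours and GNPC, 4362 to 4548 between tumours and DBS and 2000 to 2304 between GNPC and DBS. In the ranking Lcn2 came at place 6 with a pseudocount of 64. With the mean of probe sets Prm1 came at place 4 and Tbata at 5, and Tbata came at place 9 without probe sets of shared or alternative transcripts. Counts of list genes called were within 1.5 times under 1683 of 1764 alternatives. Many of these counts were 0 and some lists had only 0 or 1 gene tested, so this says little about the other counts. The 3.28 for Tbata is the tumour difference from GNPC on 1429956_at, its only probe set without such a suffix. Apart from the changes of probe set for Prm1 and Tbata, the cause of these shifts was not tested. Readings near background give only a bound on the fold. This holds for the 2 bright Prm1 probe sets and Lcn2 in normal tissues, and for Tbata on some DBS arrays.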
